A study of Mus musculus with 6 samples.

Results

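miR-208a, miR-208b and miR-499 are the microRNAs (miRNAs) of heart muscle that lie inside introns of the myosin heavy chain genes Myh6, Myh7 and Myh7b. They were taken by name (mmu-miR-208a, mmu-miR-208b and mmu-miR-499), as 3 of the 698 rows of a small RNA sequencing table. The table holds 3 libraries from HCM mutant mice (genotype aMHC403/+, with the R403Q change in Myh6) and 3 from WT mice. All samples are left ventricle of aged mice, more than 50 weeks old, and the labels state no sex or strain. HCM is read here as hypertrophic cardiomyopathy, a thickening disease of heart muscle. The gene that carries the mutation is the host of miR-208a.

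Myosin heavy chain is the motor protein of the muscle thick filament. In the mouse ventricle Myh6, the alpha chain, is the main adult form, and Myh7, the beta chain, is the fetal form that cardiac stress can raise again. Intronic miRNAs can be cut from the same primary transcript as their host, and host transcripts were not measured here. Mature miRNAs repress messenger RNAs that pair with their seed, the bases near the 5′ end. In mice miR-208a is known to be needed for the stress-induced rise of Myh7, and miR-208b and miR-499 are linked to slow muscle fibre genes.

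The mature sequences are shown because they define which reads were counted and what the members share. They are from RefSeq (GRCm38.p6), and each of the 3 was identical to the sequence in the deposited table. The seed, bases 2 to 8, is in capitals.
miR-208a: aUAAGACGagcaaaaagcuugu
miR-208b: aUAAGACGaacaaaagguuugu
miR-499: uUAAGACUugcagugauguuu

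miR-208a and miR-208b had the same seed, and miR-499 shared bases 2 to 7 of it. No other row of the table held UAAGAC at bases 2 to 7. With positions counted from 1 at the 5′ end of miR-208a, miR-208b differed from it by G10A, A16G and C18U, so that 19 of 22 bases were the same and 0 of the differences lay in the seed. miR-499 differed from miR-208a at 9 of 21 positions, with G8U as the only difference in the seed. How the authors assigned reads that match both miR-208a and miR-208b is not given in the sources used here, and levels of these near-identical miRNAs are uncertain to that extent.

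The hairpins, with the mature arm in capitals, show that miR-208a and miR-208b come from the 3′ arm and miR-499 from the 5′ arm.
Mir208a: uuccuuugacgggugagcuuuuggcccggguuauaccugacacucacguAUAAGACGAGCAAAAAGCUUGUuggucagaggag
Mir208b: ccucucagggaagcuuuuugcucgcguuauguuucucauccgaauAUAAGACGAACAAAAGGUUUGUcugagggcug
Mir499: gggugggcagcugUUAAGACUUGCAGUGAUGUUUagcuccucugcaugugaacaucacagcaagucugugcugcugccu

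In GRCm38 the mature miR-208a lies at chr14:54949072-54949093 on the minus strand, in intron 29 of the principal transcript of Myh6, which has 39 exons. miR-208b lies at chr14:54975710-54975731 on the same strand, in intron 31 of the principal transcript of Myh7, which has 41 exons, and 26557 bases separate the 2 hairpins. miR-499 lies at chr2:155622893-155622913 on the plus strand, in intron 19 of the principal transcript of Myh7b, which has 42 exons. The 3 introns are 542, 461 and 481 bases long, and each hairpin lies nearer to the upstream than to the downstream exon.

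The libraries held between 2483486 and 5223636 miRNA reads, with between 367 and 407 miRNAs detected. Values are reads per 1000000 miRNA reads (RPM), a share of all miRNA reads in the library. On the first principal component of the 193 miRNAs tested, whose mean over the libraries reached 10 RPM, HCM mutant replicates 1, 2 and 3 stood at 1.25, 2.70 and 4.74 and WT replicates 1, 2 and 3 at −5.13, 0.054 and −3.62. Beside the members, the tissue held miR-1, a muscle miRNA, as the most abundant of all, at 239189 ± 32646 RPM in mutants and 293575 ± 35456 RPM in WT (SD, n = 3 each).

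miR-208a was the most abundant of the 3 in every library. It ranked second among all miRNAs in each of the 6, with between 413859 and 913979 reads. Its level was 130217, 183008 and 166644 RPM in HCM mutant replicates 1, 2 and 3, against 142754, 139727 and 174970 RPM in WT replicates 1, 2 and 3. The lowest and the highest values were both mutant, and the groups overlapped. The mean was 1.05 times as high in mutants as in WT.

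miR-208b stood at 14522, 17711 and 21523 RPM in HCM mutant replicates 1, 2 and 3, against 11031, 11794 and 11541 RPM in WT replicates 1, 2 and 3. All 3 mutants lay above all 3 WT libraries, and the mutants differed far more among themselves than the WT libraries did. Each value rests on between 40233 and 73576 reads. For the library with the widest counting error, HCM mutant replicate 3, the 95% Wilson interval was 21343 to 21704 RPM, narrow beside the differences between libraries. Such intervals cover counting error only.

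miR-499 stood at 12600, 12871 and 9620 RPM in HCM mutant replicates 1, 2 and 3, against 16252, 17711 and 16949 RPM in WT replicates 1, 2 and 3. All 3 mutants lay below all 3 WT libraries, and HCM mutant replicate 3 was the lowest. That library held 23891 miR-499 reads (95% Wilson interval 9499 to 9742 RPM), the fewest of the 6.

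The order of the 2 less abundant members by reads was therefore not the same in the groups. Whether equal amounts of different miRNAs yield equal reads was not tested, so levels of different miRNAs compare reads only. In all 3 mutants miR-208b lay above miR-499, and in all 3 WT libraries miR-499 lay above miR-208b. Among all miRNAs miR-208b ranked 16, 13 and 13 in HCM mutant replicates 1, 2 and 3, against 18, 19 and 15 in WT replicates 1, 2 and 3. miR-499 ranked 19, 16 and 22 in the mutants, against 13, 13 and 12 in WT.

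**Figure D1:**
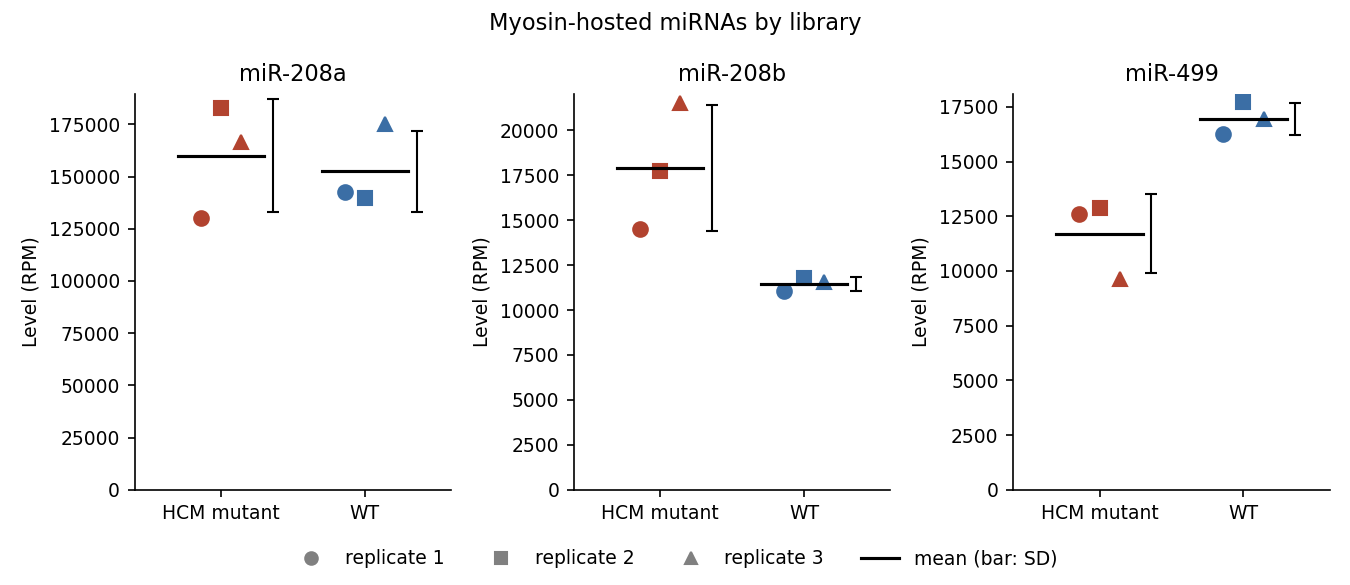
Levels of the 3 miRNAs in RPM (vertical axes, from 0) for the 3 HCM mutant and the 3 WT libraries; points are libraries, horizontal lines group means and bars SD. The groups overlap for miR-208a, all mutants lie above WT for miR-208b and all mutants lie below WT for miR-499.

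The comparison of mutant with WT asks which miRNAs differ with the mutation in the aged ventricle. It was tested on log2(RPM + 1) with limma over all 193 miRNAs, with Benjamini-Hochberg adjustment over all of them and a threshold of 0.05. At this threshold 10 miRNAs were called higher in the mutant (5.18%) and 0 were called lower (0%). Without adjustment, 38 were higher (19.7%) and 4 lower (2.07%) at p under 0.05, and edgeR's quasi-likelihood test on the recovered reads called 8 higher (4.15%) and 1 lower (0.518%). miR-208b was among the 10. Its log2 difference was 0.63 ± 0.18 (SE; 95% interval 0.27 to 0.99; limma adjusted p = 0.0282), a mean 1.56 times as high. It was not called with edgeR (0.53, edgeR adjusted p = 0.112) or DESeq2 (0.46, DESeq2 adjusted p = 0.131) on the recovered reads, nor with limma after TMM (adjusted p = 0.150) or median-of-ratios scaling (adjusted p = 0.160). miR-499 did not pass, at −0.55 ± 0.17 (95% interval −0.90 to −0.19; limma adjusted p = 0.0559). It was the 1 miRNA that edgeR called lower (−0.65, edgeR adjusted p = 0.0393).

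miR-208a did not pass, with a limma adjusted p of 0.817. The 95% interval of its log2 difference, −0.24 to 0.37, holds the median of all tested miRNAs, 0.15. This median depends on the scaling and was −0.00081 after median-of-ratios scaling. Relative to the median, the log2 difference was 0.47 for miR-208b, −0.091 for miR-208a and −0.70 for miR-499. The sign of the miR-208a difference turned with the scaling: it was 0.062 on RPM and −0.10 after median-of-ratios scaling.

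Without overlap between the groups, 35 of the 193 miRNAs lay above WT in all mutants (18.1%), miR-208b among them, and 5 lay below (2.59%), miR-499 among them. Of the 21 tested miRNAs whose mean reached 10000 RPM, a limit chosen after the values were seen, miR-208b had the highest log2 difference over the 6 libraries and miR-499 the lowest. The nearest to miR-208b was let-7i at 0.57, and the nearest to miR-499 was miR-29c at −0.35.

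**Figure D2:**
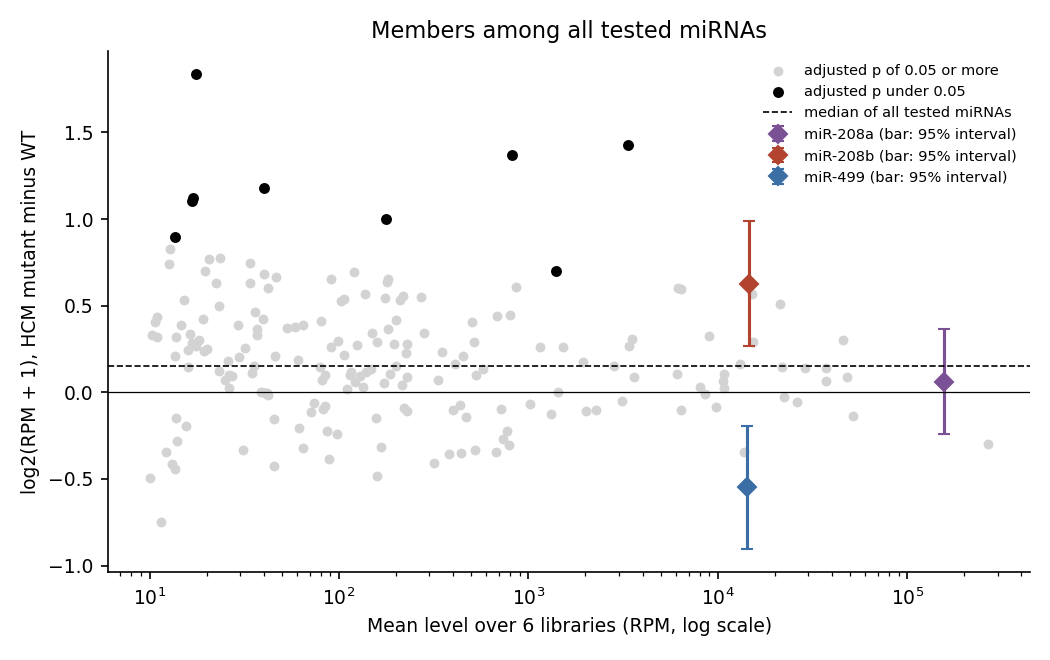
Log2 difference of HCM mutant minus WT (vertical axis) against the mean level over the 6 libraries (RPM, log scale) for the 193 tested miRNAs; diamonds mark the 3 members with 95% intervals, black points other miRNAs with an adjusted p under 0.05, and the dashed line the median of 0.15. miR-208b (0.63) and miR-499 (−0.55) lie at the upper and lower edge among miRNAs of like abundance, and the interval of miR-208a spans 0.

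The call of miR-208b was lost when any 1 of 4 libraries was left out. Without HCM mutant replicate 3 its log2 difference was 0.49 and the limma adjusted p 0.388. The adjusted p was 0.0620 without HCM mutant replicate 2, 0.0678 without WT replicate 1 and 0.150 without WT replicate 3, where the difference was between 0.60 and 0.63. miR-499 was called lower without HCM mutant replicate 1 (−0.61, limma adjusted p = 0.0245), where 1.55% of the miRNAs were, and without HCM mutant replicate 3 it was −0.41 (limma adjusted p = 0.463).

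**Figure D3:**
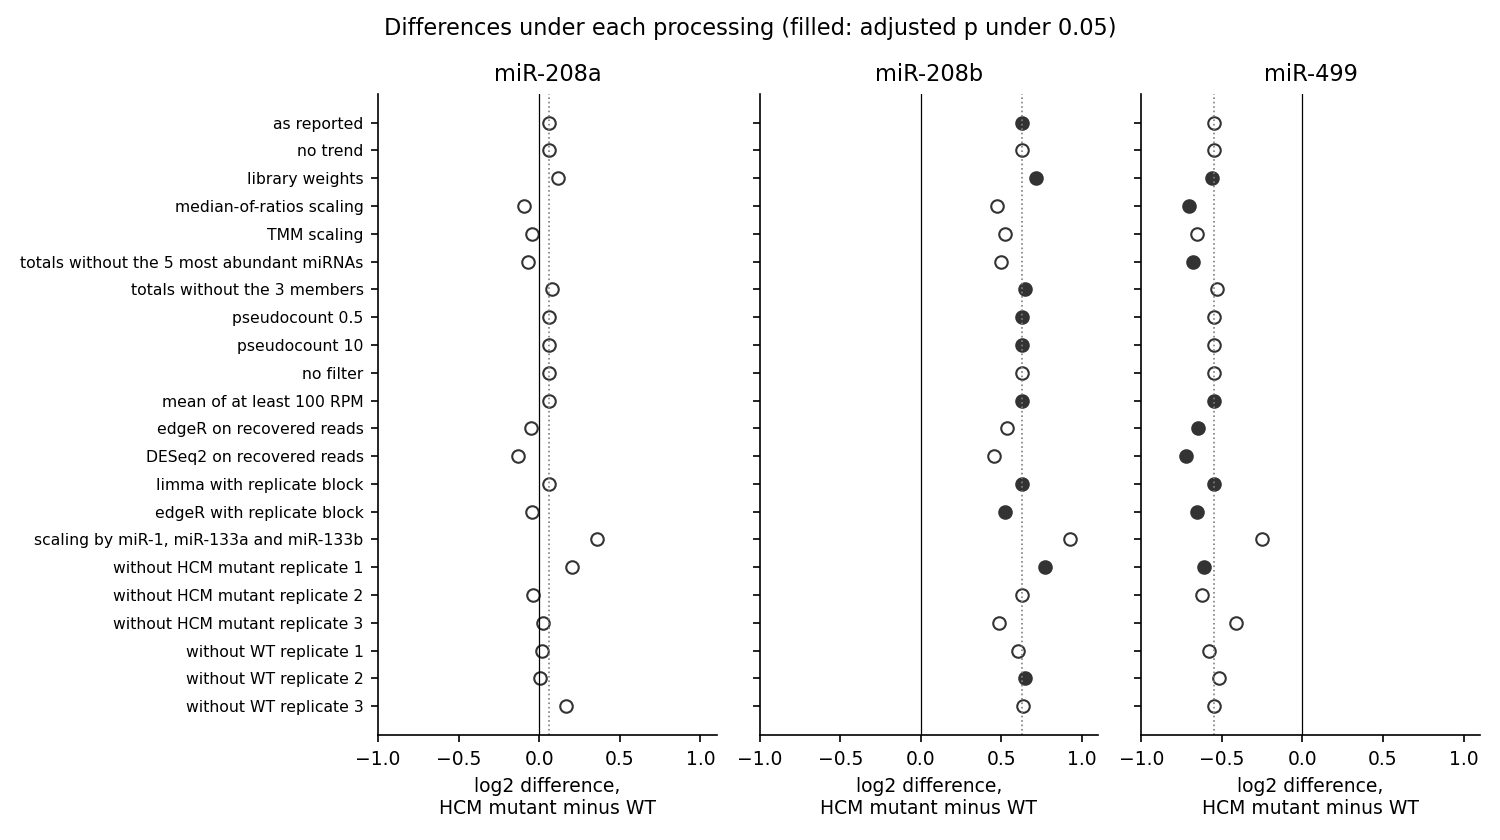
Log2 difference of HCM mutant minus WT (horizontal axes) for each member under each processing and with each library left out (rows); filled points have an adjusted p under 0.05 and the dotted line is the value as reported. miR-208b stays above 0 and miR-499 below 0 in every row, with 9 of 21 alternatives called for each, and miR-208a lies on both sides of 0. Over these alternatives between 0 and 37 miRNAs in all were called.

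HCM mutant replicate 3, with the highest miR-208b and the lowest miR-499, was also the library with the fewest reads (2483486). It had the highest summed level of the fibroblast list (miR-21, miR-199a-5p, miR-199a-3p and miR-214). That sum was 3931, 6658 and 8512 RPM in HCM mutant replicates 1, 2 and 3, against 1613, 3040 and 2551 RPM in WT replicates 1, 2 and 3, with 3 of the 4 members called higher. Most of it was miR-21, with means of 4904 RPM in mutants and 1780 RPM in WT. The summed level of the muscle list (miR-1, miR-133a, miR-133b, miR-206 and miR-486) was 268567, 251642 and 205239 RPM in the mutants, against 328219, 258584 and 302478 RPM in WT. Most of this sum was miR-1, with means of 239189 RPM in mutants and 293575 RPM in WT. None of the 3 muscle miRNAs tested was called, and the median of their log2 differences was −0.14. Whether depth or the mix of cells has a part in the differences of the members was not tested. In ventricle RNA, fewer cells of a type and less RNA per cell cannot be told apart.

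Ratios within a library do not depend on how the library is scaled, and ask whether 2 members differ in their response. miR-208b was 11.2%, 9.68% and 12.9% of miR-208a in HCM mutant replicates 1, 2 and 3, against 7.73%, 8.44% and 6.60% in WT replicates 1, 2 and 3. All mutants lay above WT, as they did for 8.85% of the 192 miRNAs divided by miR-208a. The log2 difference of the ratio, 0.57 ± 0.30 (SE; 95% interval −0.018 to 1.15), did not pass in a limma fit over these 192 ratios (adjusted p = 0.592). In that fit 4 ratios were called higher (2.08%) and 0 lower (0%), where edgeR called 3 higher (1.56%) and 0 lower (0%). The fit on ratios carries the spread of miR-208a into every value, and its SEs are pooled over the 192 ratios. Without a trend the SE was 0.33 for the ratios of miR-208b and of miR-499 to miR-208a alike. Their coefficients of variation among mutants were 14.4% and 26.6%. The SE is thus not the spread of 1 ratio alone.

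miR-499 was 9.68%, 7.03% and 5.77% of miR-208a in HCM mutant replicates 1, 2 and 3, against 11.4%, 12.7% and 9.69% in WT replicates 1, 2 and 3. All mutants lay below WT, as for 3.65% of the ratios, but HCM mutant replicate 1 and WT replicate 3 all but touched. The log2 difference of −0.61 ± 0.30 (95% interval −1.19 to −0.027) did not pass either (limma adjusted p = 0.551).

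The ratio of miR-208b to miR-499 was 1.15, 1.38 and 2.24 in HCM mutant replicates 1, 2 and 3, against 0.679, 0.666 and 0.681 in WT replicates 1, 2 and 3. As a ratio of reads it was above 1 in every mutant and below 1 in every WT library. The mean was 2.35 times as high in mutants. Of all 192 miRNAs divided by miR-499, 72.9% lay above WT in every mutant. The log2 difference was 1.18 ± 0.25 (95% interval 0.68 to 1.68; limma adjusted p = 9.90e-05). This call is not particular to miR-208b, since 132 of the 192 miRNAs divided by miR-499 were called higher (68.8%) and 0 were called lower (0%). It stayed called with each library left out, with a log2 difference between 0.90 and 1.38. The SE and p rest on a variance pooled over the 192 ratios. The coefficient of variation of this ratio itself was 36.1% in mutants and 1.20% in WT.

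**Figure D4:**
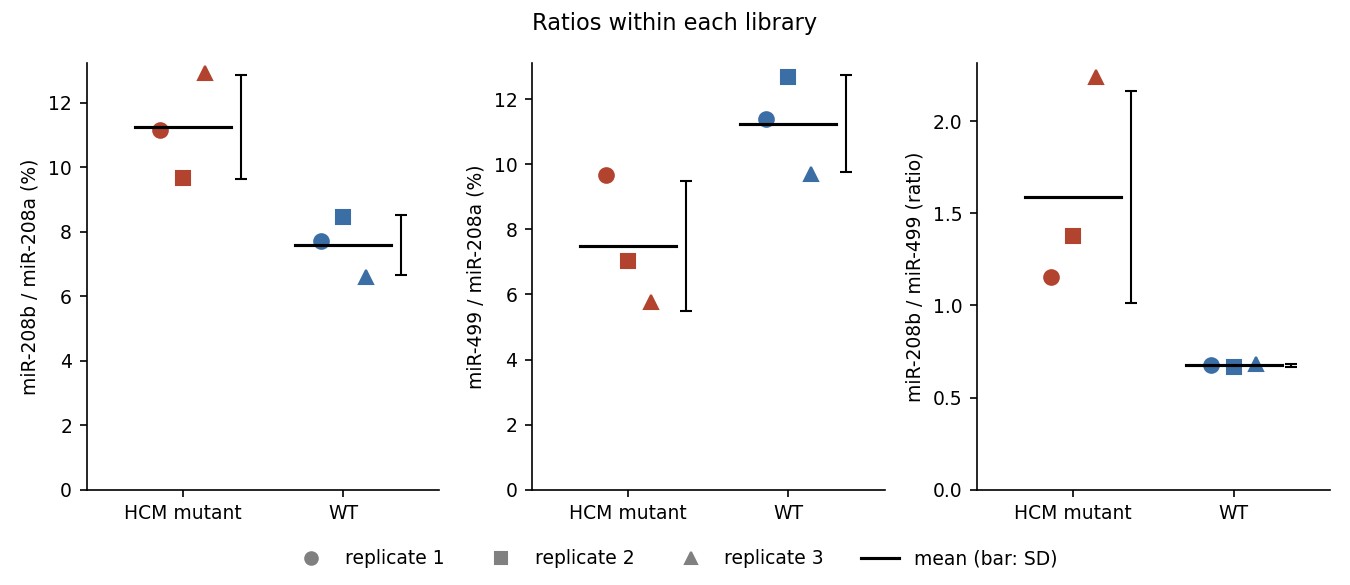
Ratios of the members within each library (vertical axes, from 0; percent in the first 2 panels and a plain ratio in the third) for the 3 HCM mutant and the 3 WT libraries; points are libraries, lines group means and bars SD. The WT values of miR-208b over miR-499 lie between 0.666 and 0.681, below all mutants at 1.15 to 2.24.

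The spread among libraries was unequal for miR-208b and miR-499. The SD of log2(RPM + 1) was 0.28 among mutants and 0.049 among WT for miR-208b, a ratio of 5.76 that 0 of the other 192 tested miRNAs reached. It was 0.23 among mutants and 0.062 among WT for miR-499, and 4 of the other 192 had a ratio at least as large. For miR-208a it was 0.25 among mutants and 0.18 among WT. Of all 193 miRNAs, 76 had a larger SD in mutants than in WT. In WT the ratio of miR-208b to miR-499 had a coefficient of variation of 1.20%, and 1 of the 191 other miRNAs divided by miR-499 had one as low. In mutants it was 36.1%, against a median of 23.6% over the 192 ratios. These are SDs of 3 libraries each, looked at after the values were seen, and no test of spread was made.

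The summed share of the 3 members in all miRNA reads overlapped between the genotypes. Their sum was 15.7%, 21.4% and 19.8% of the reads in HCM mutant replicates 1, 2 and 3, against 17.0%, 16.9% and 20.3% in WT replicates 1, 2 and 3, and the two-sided exact permutation test of this difference gave p = 0.9 (1.0 adjusted over 4 tests). miR-208a made up 84.2% ± 1.46 of that sum in mutants and 84.2% ± 1.73 in WT (SD, n = 3 each; exact permutation p = 1.0).

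Within the sum, miR-208b held 9.23%, 8.29% and 10.9% in the mutants, against 6.49%, 6.97% and 5.67% in WT. miR-499 held 8.01%, 6.03% and 4.86% in the mutants, against 9.56%, 10.5% and 8.33% in WT. Neither set of values overlapped between groups, and each had a two-sided exact permutation p of 0.1, the smallest that 3 against 3 libraries allow, and 0.2 adjusted over the 4 tests. The 3 shares add up to 100% and are not independent. As miR-208a made up most of the sum, the shares of miR-208b and miR-499 largely restate their ratios to miR-208a. Of all 192 ratios to miR-208a, 8.85% lay above WT in every mutant and 3.65% lay below. The 95% Wilson interval of a single share was at most 0.204 percentage points wide. miR-208b and miR-499 together came to 27122, 30582 and 31143 RPM in the mutants, against 27283, 29505 and 28490 RPM in WT, with the groups overlapping.

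Each member was set beside the 3 other tested miRNAs most like it by Pearson's r of log2(RPM + 1) over the 6 libraries, as a description. The libraries share their totals and depth, and r here includes the difference between the genotypes. For miR-208a these were miR-148a (r = 0.94), miR-301a (0.89) and miR-181d (0.80), whose groups overlapped as those of miR-208a did. For miR-208b they were miR-125b-3p (0.98), miR-497 (0.96) and miR-142-5p (0.96). Of these miR-125b-3p and miR-497 were called higher (limma adjusted p = 0.0123 for each), and miR-142-5p, an arm of a hairpin that blood-derived cells express, was not (limma adjusted p = 0.0747). For miR-499 they were miR-130a (0.90), miR-19b (0.89) and miR-874 (0.87). miR-19b and miR-874 lay below WT in all mutants, and none of the 3 was called.

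Markers of other cells of the ventricle, with lists chosen from general knowledge, differed in part between the groups. Whether each miRNA is confined to the cells that its list names was not tested. In the fibroblast list miR-21 (log2 difference 1.43), miR-214 (1.37) and miR-199a-5p (1.18) were called higher. In the blood and immune list 1 of 6 was called higher, miR-142-3p at 0.70. The summed level was 2135 to 2427 RPM in mutants and 1433 to 1822 RPM in WT. Most of it was miR-142-3p, with means of 1728 RPM in mutants and 1065 RPM in WT. miR-223, of myeloid cells, differed by 0.55 and miR-142-5p by 0.74, and neither was called. miR-150 (−0.48), miR-451 (−0.33) and miR-144 (−0.21) went the other way and were not called either. The 2 endothelial arms, miR-126-3p at 0.15 and miR-126-5p at 0.064, and the 2 smooth muscle miRNAs, miR-143 at 0.14 and miR-145 at −0.30, were not called. Among muscle miRNAs, miR-1 differed by −0.30, miR-133a by −0.14 and miR-486, which red blood cells also hold, by −0.10, and none was called. A list of 9 miRNAs of other organs, led by miR-375 and miR-9, summed to between 53.2 and 56.9 RPM in mutants and between 48.0 and 63.6 RPM in WT. The part of these cell types in the results for the members was not tested.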

How the data were processed

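Per the labels' protocols, total RNA of the left ventricle was extracted with a kit for miRNA and turned into multiplexed libraries. The authors deposited 1 table with a column per library that its header calls normalised. The values are RPM, as worked out from the deposited table: each column sums to about 1000000, and 100% of the values were whole multiples of 1 read within 0.02 reads, from which whole reads were recovered. For the aligner, the miRNA database and the build the entry is: not given in the sources used here. A count of 0 allows up to between 0.574 and 1.21 RPM (3 reads).

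The members, lists and tests were chosen with earlier results of these data known. limma 3.58.1 (R 4.3.3, trend, two-sided, no covariates) was fitted on log2(RPM + 1), a scale that understates changes of low miRNAs, for 193 miRNAs whose mean over the 6 libraries reached 10 RPM. Ratios were fitted alike over 192 miRNAs. Named were the members, the 3 miRNAs most like each, and in each list the 2 most abundant and those called. miR-1, miR-133a and all of the blood and immune list were named too. Alternatives included edgeR 4.0.16 and DESeq2 1.42.0 on the recovered reads. The steps were run on simulated data, with the same spread setting for all miRNAs in both groups and miR-208a unchanged. Such data do not test the unequal spread of miR-208b and miR-499, or ratios to miR-499. The titles call the libraries biological replicates, and all pairs within a group differed by more than sampling noise of reads. The limma p-values rest on a variance between libraries that is pooled, in part or in whole, over the tested miRNAs. They do not measure the spread of 1 miRNA or ratio alone. Python 3.11.15, scipy 1.17.1 and matplotlib 3.10.9 were used, with GENCODE M21 for host introns. Minor arms of the 3 hairpins were not analysed here.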

Additional observations from a re-analysis of the deposited data

How the results depend on the processing

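The difference of miR-208b kept its sign in all 21 alternatives. It was called in 9, where between 9 and 34 miRNAs in all were called higher, and lost its call in 12. Among these its log2 difference was 0.63 without a trend and without a filter, 0.47 with median-of-ratios scaling, 0.52 with TMM, 0.49 with totals lacking the 5 most abundant miRNAs, 0.53 with edgeR and 0.46 with DESeq2. miR-499 kept its sign in all 21 and passed as lower in 9, at −0.56 with library weights, −0.71 with median-of-ratios scaling, −0.68 with totals without the 5 most abundant miRNAs, −0.55 with a filter at a mean of 100 RPM, −0.65 with edgeR and −0.72 with DESeq2. Of all miRNAs, 3 of 193 were called lower with library weights and 4 of 193 with DESeq2. With median-of-ratios scaling, totals without the 5 most abundant and edgeR it was 1 of 193, and 1 of 107 with the filter at 100 RPM. miR-208a was never called. Its sign turned with median-of-ratios scaling (−0.10), TMM (−0.044), totals without the 5 most abundant miRNAs (−0.071), edgeR (−0.054) and DESeq2 (−0.13). Scaling by the reads of miR-1, miR-133a and miR-133b, chosen after seeing the data, gave 0.92 for miR-208b, no longer called, 0.36 for miR-208a and −0.25 for miR-499, neither called, and 0 miRNAs called by limma (48 higher and 0 lower at an unadjusted p under 0.05; edgeR called 9 with its own scaling). Most of the reads behind this scaling were of miR-1, at a mean of 266382 RPM against 466 for miR-133a and 4.36 for miR-133b. Other scalings shift all miRNAs of a library together. For the other settings the cause was not tested.

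Leaving out 1 library at a time, miR-208a ranged from −0.042 (without HCM mutant replicate 2) to 0.20 on the log2 scale, miR-208b from 0.49 to 0.77 and miR-499 from −0.62 to −0.41. The summed share of the members differed by between −0.33 and 2.48 percentage points, negative without HCM mutant replicate 2. The share of miR-208a in that sum differed by between −0.74 and 0.97 points. Library weights brought the ratios to miR-208a past the threshold, at 0.62 for miR-208b and −0.79 for miR-499, in fits whose weights in 2 of the 3 ratio fits stopped before their tolerance. The ratio of miR-208b to miR-499 was called in all 20 alternatives. Those that only change the scaling cannot move a ratio within a library, so their result was all but fixed. In the fit as reported 68.8% of the ratios to miR-499 were called higher. That share in the alternatives is not given here.

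Against 10 miRNAs called, library weights gave 37, median-of-ratios scaling 6 and TMM 4. Leaving out 1 library gave 1 to 24, the lowest without WT replicate 3 and the highest without HCM mutant replicate 1. The count was 5 when WT replicate 1 was left out and 22 when WT replicate 2 was. The labels do not say that replicate numbers pair the animals, and same-numbered deviations correlated at 0.51, −0.07 and 0.18, so no pairing was assumed. With the replicate block limma called 17 miRNAs and edgeR 33, with miR-499 called at −0.55 and −0.66. Of the 193 miRNAs, limma called 1 lower and edgeR 10 in these fits. In edgeR with the replicate block miR-208a was at −0.048 and miR-208b was called (0.52, edgeR adjusted p = 0.00813), which edgeR without the block did not call. With the block limma changed the call of no other member and, like edgeR, of no ratio.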
